A study of Homo sapiens with 402 samples.

Results

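The 47 genes described here encode proteins that copy DNA in S phase: the licensing proteins, the helicase activators, the polymerases with their clamp and clamp loader, the enzymes that supply nucleotides, and the proteins that start S phase, rebuild chromatin and repair broken forks. They were taken as a list of gene symbols, and all 47 are rows of every count file, among 15081 symbols in the libraries of the plate that held DDE and 34718 symbols in all other libraries. All 47 also passed the filter on low counts on each of the 5 plates, so no member was lost. By role they comprise 11 licensing genes (ORC1, ORC6, CDC6, CDT1, MCM2 to MCM7 and MCM10), 5 helicase activators (CDC45 and GINS1 to GINS4), 13 genes of the polymerases, clamp and flap processing (POLA1, POLA2, PRIM1, POLD1, POLE, POLE2, PCNA, RFC2 to RFC5, FEN1 and LIG1), 4 nucleotide supply genes (RRM1, RRM2, TYMS and TK1), 5 genes of S phase entry and checkpoint (CCNE1, CCNE2, E2F1, CLSPN and SLBP), 3 genes of chromatin copying (UHRF1, CHAF1A and CHAF1B) and 6 genes of recombination and crosslink repair (RAD51AP1, BRCA1, BRCA2, FANCD2, RECQL4 and EXO1).

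In G1, ORC, CDC6 and CDT1 load the ring of MCM2 to MCM7 onto DNA. At the start of S phase CDC45 and the GINS proteins turn that ring into the working helicase, and polymerases held on by the PCNA ring follow it. Many of these genes are transcribed through E2F factors, which RB holds back in G1 and cyclin E-CDK2 releases, so their RNA is abundant in dividing cells and scarce in resting ones. In a lysate of a whole well, fewer cells in S phase and less of these RNAs in each cell cannot be told apart.

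The cells were MCF10A, a non-tumorigenic line of human breast epithelium, wild type by label, and every group shares that line. Cultures in 384-well plates received 1 of 21 chemicals at 0.025, 0.25, 2.5 or 25 µM, or solvent alone, for 48 h, to measure how expression responds to each exposure. The metals (mercury, lead, copper, cadmium and arsenic) shared plate 3153-AT, whose 15 controls received water. Thiram was on plate 3284-AT together with PCB187, PCB153, DCP_25 and DCB_14 and 15 wells of DMSO alone. Plate 3206-AT carried PPB, MPB, BPS, BPF and BPA, again beside 15 wells of DMSO alone. On plate 3240-AT, PFDA, PFNA, PFOS and phenanthrene were given in DMSO with 12 controls and PFOA in water with 4. DDE shared the plate part of its barcode, with the ending 1, with 8 controls whose labels name water and plate 3153-AT. Plate 3240-AT has the same plate part with the ending 2, so DDE was taken as a separate plate by that ending. The DDE libraries are labelled DMSO and a different plate. Groups consisted of 4 libraries. The exceptions were the 0.025 µM groups of PPB and MPB, with 3 each, and cadmium at 25 µM, with 2. Of the 3 cadmium libraries at that dose read here, 1 carried the barcode of plate 3284-AT and was set aside. The labels call the wells biological replicates but do not say that they came from separate cultures, so p-values measure the spread between wells.

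Without that library, totals per library ran from 1.43 to 25.8 M counts, with a median of 12.6 M. On plates other than that of DDE, dosed libraries 1 and 2 and the controls with the first 8 numbers are called lower-numbered here, and the rest higher-numbered. The median total of lower- against higher-numbered controls was 20.9 against 3.17 M on plate 3153-AT and 17.9 against 3.18 M on plate 3284-AT. The labels do not call this split a batch, but the replication genes differed across it, as described at the end. In the controls, all 10 basal epithelial markers had a median of at least 1 CPM on every plate, and no immune marker did. At most 2 of the luminal hormone-responsive, 2 of the stromal and 3 of the endothelial markers did.

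The promoters of 42 of the 47 genes were found in a RefSeq table (GRCh38.p14), each from 250 bases before to 50 bases after the gene's start. The E2F-type motifs TTTGGCGC, TTTCCCGC, TTTGCCGC and TTTCGCGC, searched on both strands, occurred in 22 of these 42 promoters (52.4%) and in 3.32% of all 35116 promoters of that length. CCAAT, the NF-Y motif, likewise searched on both strands, occurred in 22 of the 42 (52.4%) and in 34.6% of all. A match is a description of the letters only. The 120 bases before the start are shown for 5 genes lowered in arsenic that hold such a motif. MCM10, which was lowered too (-2.46 log2) and holds none, is also shown. SLBP is shown because it was called lower in arsenic and higher in thiram. All windows are written 5′ to 3′ on the strand of the gene, with any E2F-type motif in capitals. In MCM6 the capitals span a pair of overlapping motifs on opposite strands, and in MCM10 and SLBP no capitals appear because these letters are not in their windows.
MCM7 (chr7:100101398-100101517, minus strand): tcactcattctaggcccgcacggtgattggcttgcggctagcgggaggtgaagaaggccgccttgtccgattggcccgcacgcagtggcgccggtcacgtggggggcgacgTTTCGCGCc
MCM6 (chr2:135876444-135876563, minus strand): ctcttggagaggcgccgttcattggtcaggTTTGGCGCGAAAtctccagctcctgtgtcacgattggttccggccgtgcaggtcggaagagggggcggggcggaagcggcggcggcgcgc
PCNA (chr20:5126623-5126742, minus strand): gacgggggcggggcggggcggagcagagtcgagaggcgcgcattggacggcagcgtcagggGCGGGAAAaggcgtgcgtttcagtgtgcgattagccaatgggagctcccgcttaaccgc
TYMS (chr18:657533-657652, plus strand): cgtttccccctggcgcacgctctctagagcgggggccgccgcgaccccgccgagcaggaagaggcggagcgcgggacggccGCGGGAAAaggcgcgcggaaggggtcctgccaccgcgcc
E2F1 (chr20:33686386-33686505, minus strand): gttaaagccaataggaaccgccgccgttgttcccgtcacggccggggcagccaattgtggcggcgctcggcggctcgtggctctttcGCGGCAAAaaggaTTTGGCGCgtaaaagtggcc
MCM10 (chr10:13161438-13161557, plus strand): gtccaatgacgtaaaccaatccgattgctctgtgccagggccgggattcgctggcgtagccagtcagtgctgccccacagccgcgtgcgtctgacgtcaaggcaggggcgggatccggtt
SLBP (chr4:1712320-1712439, minus strand): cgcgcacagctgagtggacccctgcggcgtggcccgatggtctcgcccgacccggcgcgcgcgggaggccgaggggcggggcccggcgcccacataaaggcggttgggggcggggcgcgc

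Arsenic at 25 µM lowered the replication genes in every role. Of the 47, 38 were called lower and 0 higher, where a call is an adjusted p under 0.05 in edgeR's quasi-likelihood test with Benjamini-Hochberg adjustment over all genes of the plate. Over all 24295 genes tested, 18.2% were called lower and 23.2% higher. The median log2 fold change was -1.32 over the members and 0.00 over all genes. For 33 of the 47, the 4 arsenic libraries all lay below the lowest of the 15 controls. How many of all genes did so was not counted, so that number has no background to be read against. The members that did not pass the test were ORC6, CDC6, GINS3, POLE, CCNE1, CCNE2, CHAF1A, BRCA2 and RECQL4, and BRCA2 and CCNE1 had estimates above 0 (0.42 ± 0.20 and 0.19 ± 0.26 log2, SE).

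Of the licensing genes 9 of 11 were called lower, with a median of -1.90. MCM7, a subunit of the helicase ring, had 35.9, 30.6, 43.2 and 37.3 CPM in the 4 arsenic libraries, against 262 to 399 CPM (median 297) in the controls. CPM here are counts per M (1000000) counts scaled by TMM, edgeR's correction for library composition. All 4 libraries were far below every control, a log2 fold change of -3.08 ± 0.17 (SE, n = 4 and 15, adjusted p = 3.76e-30, edgeR). The other ring subunits were called lower as well, at log2 fold changes of -2.91 for MCM3, -2.498 for MCM5, -2.28 for MCM6, -1.90 for MCM4 and -1.36 for MCM2. MCM10, which helps start the unwound fork, had -2.46, and CDT1 and ORC1, which load the ring, had -1.21 and -1.09. CDC6, their partner in loading, had -0.39 ± 0.25 and ORC6 -0.07 ± 0.14, and neither was called.

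Among the helicase activators 4 of 5 were called lower (median -1.75). CDC45, which joins the ring at the start of S phase, had 23.7, 20.7, 18.1 and 12.8 CPM in arsenic and 44.8 to 103 CPM (median 64.3) in the controls. The groups did not overlap, and the log2 fold change was -1.78 ± 0.21 (adjusted p = 6.54e-12, edgeR). GINS1, GINS2 and GINS4 had -1.94, -1.75 and -1.65, while GINS3 had -0.31 ± 0.26 and was not called.

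Of the genes for polymerases, clamp and flap processing, 12 of 13 were called lower (median -1.32). PCNA, the sliding clamp, had 28.2, 42.1, 40.3 and 19.5 CPM in arsenic against 132 to 194 CPM (median 165) in the controls. Its highest arsenic library lay well below its lowest control, and its log2 fold change was -2.36 ± 0.16 (adjusted p = 2.25e-24, edgeR). The other called genes of this role ran from -0.84 log2 (RFC4, a clamp loader subunit) to -2.71 (POLE2, the second subunit of polymerase epsilon). POLE, the catalytic subunit of the same enzyme, had -0.50 ± 0.23 and was the exception.

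All 4 nucleotide supply genes were called lower. TYMS, which makes thymidylate, had 9.86, 9.21, 9.63 and 4.87 CPM in arsenic and 47.2 to 93.6 CPM (median 56.3) in the controls, with a log2 fold change of -2.85 ± 0.23 (adjusted p = 5.70e-20, edgeR). The groups were far apart, although 1 arsenic library lay below the other 3. RRM2, the small subunit of ribonucleotide reductase, and TK1 were called lower at -1.33 and -1.06 log2. RRM1, the large subunit of that enzyme, changed least of the 4, at -0.36 ± 0.13.

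Of the S phase entry and checkpoint genes, E2F1, CLSPN and SLBP were called lower and the cyclins CCNE1 and CCNE2 were not. E2F1, the transcription factor that acts on many genes of the list, had 8.68, 3.71, 6.11 and 2.71 CPM in arsenic and 12.8 to 44.5 CPM (median 19.6) in the controls, a log2 fold change of -2.05 ± 0.39 (adjusted p = 6.11e-06, edgeR). SLBP, which binds histone mRNA, had 71.3, 65.0, 84.8 and 93.9 CPM against 94.0 to 152 CPM (median 104). All 4 arsenic libraries lay below the lowest control, 1 of them barely, and the log2 fold change of SLBP was -0.47 ± 0.15 (adjusted p = 0.00722, edgeR). That call was lost under RLE scaling (adjusted p = 0.0566), without arsenic library 2 (0.0596), in the higher-numbered libraries alone (0.0719) and against the lower-numbered controls alone (0.0732).

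CHAF1B, a subunit of the factor that places histones on new DNA, had 6.97, 9.81, 10.4 and 11.3 CPM in arsenic against 22.9 to 55.01 CPM (median 33.1), a log2 fold change of -1.76 ± 0.24 (adjusted p = 1.01e-09, edgeR). UHRF1, which helps copy DNA methylation, had -1.96 ± 0.43 and was called, and CHAF1A had -0.25 ± 0.24 and was not called. Among the recombination genes EXO1, a nuclease, had 15.2, 9.69, 17.3 and 11.8 CPM against 40.9 to 111 CPM (median 54.2), a log2 fold change of -2.07 ± 0.31 (adjusted p = 1.60e-08, edgeR). RAD51AP1, FANCD2 and BRCA1 were called lower at -0.79, -0.75 and -0.74 log2, and BRCA2 and RECQL4 were not called. Of the promoters with an E2F-type motif, 19 of 22 belonged to a gene called lower in arsenic, with a median of -1.72. Of those without one it was 16 of 20, with a median of -1.04, and the difference was not tested.

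The total counts of the arsenic libraries were 7.27 to 11.98 M. The basal marker genes of the line moved too: their summed level was 1547 to 2225 CPM in arsenic and 3677 to 4443 CPM in the controls, with 9 of 10 at a median of at least 1 CPM. Luminal markers summed to 49.5 to 57.2 CPM against 14.1 to 46.1 CPM. The part of such shifts in the result was not tested. RLE scaling moved the median of all genes from 0.00 to 0.14, and 36 members were then called lower and 1 higher.

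**Figure D1:**
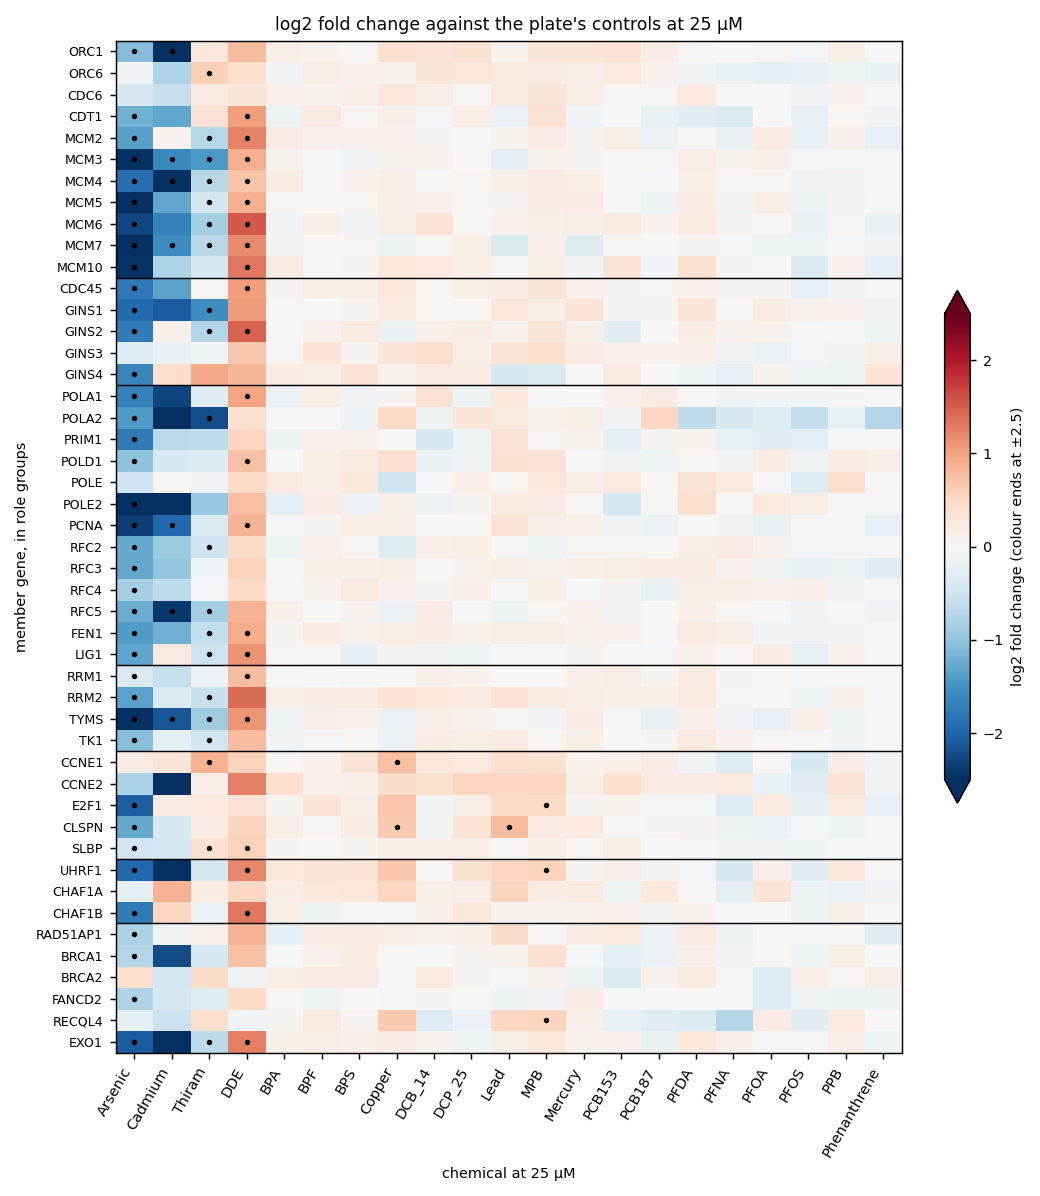
Log2 fold change at 25 µM of each of the 47 genes (rows, with lines between roles) in each of the 21 chemicals (columns) against the controls of its plate; colour runs to ±2.5 and a dot marks an adjusted p under 0.05. Arsenic has 38 lower dots, thiram 17 lower and 3 higher, cadmium 7 lower and DDE 21 higher, and the columns of the other chemicals are pale.

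Cadmium at 25 µM lowered 7 replication genes, namely ORC1, MCM3, MCM4, MCM7, PCNA, RFC5 and TYMS, and 0 were called higher. Of all genes tested there, 5.38% were called lower. MCM7 had 105 and 102 CPM in the 2 cadmium libraries, PCNA 32.6 and 51.8 CPM, and RFC5, a clamp loader subunit, 8.79 and 8.40 CPM. Each of these lay below every control (lowest 262, 132 and 34.2 CPM), with log2 fold changes of -1.58 ± 0.30, -1.96 ± 0.37 and -2.41 ± 0.77. MCM4 (45.2 and 7.002 CPM, -2.49 ± 0.55) and TYMS (1.26 and 26.6 CPM, -2.14 ± 0.66) differed widely between the 2 libraries but were below the controls in both. MCM3 had -1.62 ± 0.39. ORC1, the largest subunit of the origin complex, had 0 counts in both, as had POLA2 and POLE2. Against a floor of 3 counts over the group, they were at least 12.9-fold, 3.62-fold and 4.79-fold lower. That floor covers counting error and not the spread between wells, and POLA2 and POLE2 were not called.

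These 2 libraries held only 1.43 and 1.45 M counts, and 19 members had under 30 counts summed over both. The median over members was -0.77, the same with the members at 0 set to their bound, and the median over all genes was -1.42, a median of fitted values that at this depth is no baseline for the members. The 7 called are 7 of 47, to be read against the 5.38% of all genes above. The number of calls varied between alternatives: 12 lower without a filter, 23 lower and 1 higher with DESeq2, 4 and 3 lower without the first and the second library, and 3 lower with the library set aside put back. After TMM scaling, basal markers summed to 4737 to 5174 CPM in the 2 libraries, above every control (3677 to 4443 CPM). Luminal markers summed to 0 to 8.40 CPM, below every control (14.1 to 46.1 CPM). The part of the markers in the result was not tested. TMM treated these 2 libraries as smaller than their totals, with 3 counts over both equal to 1.99 CPM. Comparisons of their CPM with those of the controls rest on that scaling.

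Set directly against cadmium at the same dose, arsenic had lower levels of 4 members: MCM7 (-1.50 ± 0.37), LIG1 (-1.54 ± 0.48), TK1 (-0.84 ± 0.29) and CHAF1B (-2.28 ± 0.63), with adjusted p of 0.00290, 0.0248, 0.0495 and 0.00989 (edgeR). Of all genes 4.32% were called lower in this comparison. LIG1, the ligase that seals the lagging strand, had 46.5 and 64.4 CPM in cadmium, TK1 121 and 196 CPM, and CHAF1B 28.9 and 67.2 CPM. All 3 overlapped their control ranges of 38.3 to 62.4, 153 to 219 and 22.9 to 55.01 CPM. These cadmium values rest on the TMM scaling described above. Leaving out dosed library 1, 2, 3 or 4 left 1, 1, 3 or 3 calls, and DESeq2 gave 14 lower and 3 higher.

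**Figure D2:**
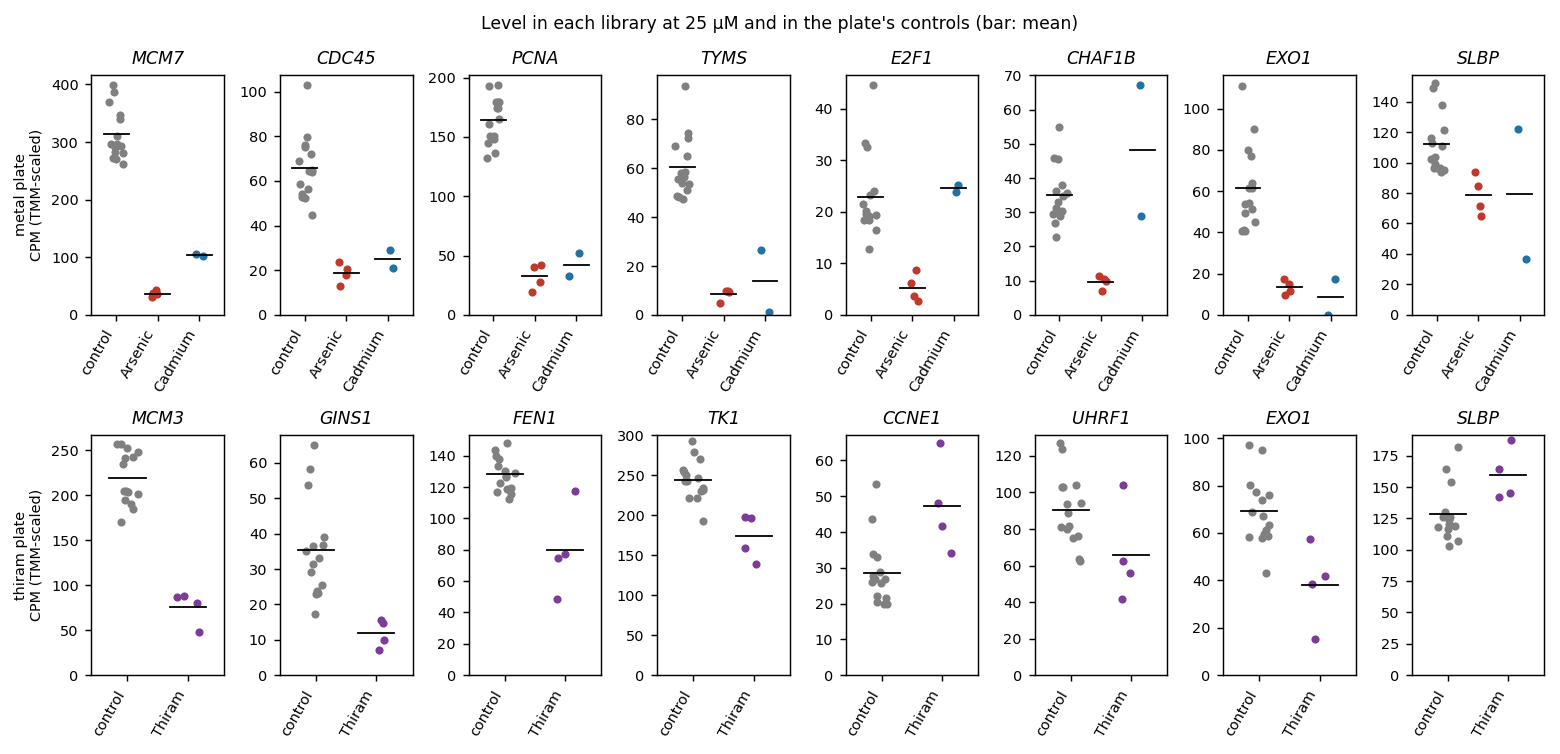
Level (CPM, TMM-scaled, vertical axes from 0) of the members with the smallest p of each role, and of SLBP, in every library: controls (grey), arsenic (red) and cadmium (blue) at 25 µM on the metal plate above, controls (grey) and thiram (purple) at 25 µM below, with a bar at each mean. MCM7 is at 30.6 to 43.2 CPM in arsenic and at 262 CPM or more in the controls, while CCNE1 and SLBP lie above the control mean in all 4 thiram libraries.

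Thiram at 25 µM split the list: 17 members were called lower and 3 higher. Of all 21307 genes tested on that plate, 12.2% were called lower and 13.7% higher. The median was -0.34 over the members and -0.11 over all genes. The lower members were 6 licensing genes, all of the helicase ring, 2 GINS genes, 5 genes of the polymerase group, 3 nucleotide enzymes and EXO1. The higher ones were CCNE1, SLBP and the licensing gene ORC6. In 8 members the 4 thiram libraries lay below every control, and in none did they lie wholly above. The same count over all genes was not made, so nothing is read from these numbers.

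MCM3, a ring subunit, had 80.2, 87.0, 87.9 and 47.6 CPM in thiram against 171 to 257 CPM (median 205) in the controls. All 4 libraries lay far below every control, with a log2 fold change of -1.44 ± 0.13 (adjusted p = 8.70e-18, edgeR). MCM6, MCM2, MCM4, MCM7 and MCM5 were called lower at -0.84, -0.71, -0.70, -0.69 and -0.46. GINS1, part of the active helicase, had 14.7, 7.03, 10.0 and 15.7 CPM against 17.3 to 65.0 CPM (median 33.2), a fold change of -1.56 ± 0.35 log2 (adjusted p = 0.000208, edgeR). GINS2 had -0.72 and was called, and CDC45, the partner of both, had 0.04 ± 0.16 and was not called.

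FEN1, which trims the flaps of lagging-strand fragments, had 118, 74.7, 77.4 and 48.4 CPM against 112 to 148 CPM (median 127), a log2 fold change of -0.61 ± 0.15 (adjusted p = 0.000575, edgeR). Library 1 lay inside the control range and the other 3 below it, and the call was lost in the lower-numbered libraries alone (adjusted p = 0.0796). TK1, which salvages thymidine, had 198, 197, 160 and 140 CPM against 193 to 293 CPM (median 243), with a log2 fold change of -0.48 ± 0.11 (adjusted p = 0.000321, edgeR). TYMS and RRM2 were called lower at -0.89 and -0.55, and RFC5, LIG1 and RFC2 at -0.86, -0.52 and -0.50. POLA2, the regulatory subunit of polymerase alpha, was called lower at -2.21 ± 0.74 on 10, 20, 0 and 1 counts.

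EXO1 had 41.9, 57.3, 38.4 and 15.3 CPM in thiram against 43.3 to 97.3 CPM (median 67.1), a log2 fold change of -0.65 ± 0.21 (adjusted p = 0.0131, edgeR), and was the only recombination gene called. Its call was lost without thiram library 4, the lowest (adjusted p = 0.0627), in the lower-numbered libraries alone (0.473) and against the lower-numbered controls alone (0.0530). UHRF1 had 104, 62.4, 55.9 and 41.8 CPM against 62.7 to 127 CPM (median 88.6) and -0.43 ± 0.18 log2, and did not pass the test (adjusted p = 0.0712, edgeR). It passed without thiram library 1, the highest of the 4 (0.00492), without a filter (0.0148), with DESeq2 (0.0382) and against the lower-numbered controls alone (0.0261). PCNA had -0.37 ± 0.19 in thiram and was not called.

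Of the higher members, CCNE1, the cyclin that drives entry into S phase, had 64.9, 41.6, 34.1 and 48.0 CPM in thiram against 19.8 to 53.4 CPM (median 26.8), a log2 fold change of 0.87 ± 0.22 (adjusted p = 0.00110, edgeR). All 4 libraries were above the control median and 1 above the control range. SLBP had 187, 145, 164 and 142 CPM against 103 to 182 CPM (median 124), and 0.38 ± 0.13 log2 (adjusted p = 0.0212, edgeR). ORC6 had 63.1, 70.3, 77.8 and 89.0 CPM against 31.96 to 77.8 CPM (median 50.5), and 0.59 ± 0.19 log2. The calls of CCNE1 and SLBP were lost without thiram library 1 (adjusted p = 0.0763 and 0.224), and that of SLBP also without library 3 (0.0992). That of ORC6 was lost without library 3 (0.0936) or 4 (0.0655), in the lower-numbered libraries alone (0.154) and against the higher-numbered controls (0.112). In the higher-numbered libraries alone CCNE1 and SLBP had 0.25 and 0.14 log2 and were not called. Against the higher-numbered controls alone, 19 members were called lower and 0 higher.

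Totals of the thiram libraries were 2.46 to 6.29 M counts, near those of the higher-numbered controls and below those of the lower-numbered ones. The basal markers summed to 2554 to 3496 CPM in thiram and 2609 to 3986 CPM in the controls, with KRT14 and KRT17 called higher (2.23 and 2.19 log2) and KRT5 and CDH3 lower (-1.37 and -1.33), and the luminal markers to 46.4 to 68.4 against 4.24 to 40.6 CPM. Their part in the result was not tested. Of the 38 members called in arsenic, 18 (47.4%) were also called in thiram, which is 90.0% of the 20 called there. Since arsenic called 38 of the 47 members, most of any 20 members would be among them, and nothing is read from the overlap. The direction was the same in 17, and SLBP was the exception. The difference in SLBP between the chemicals was not tested, since they lay on different plates. MCM3, MCM4, MCM7, RFC5 and TYMS were called lower in arsenic, cadmium and thiram, and CDC6, GINS3, POLE, CCNE2, CHAF1A, BRCA2 and RECQL4 were called in none of these.

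**Figure D3:**
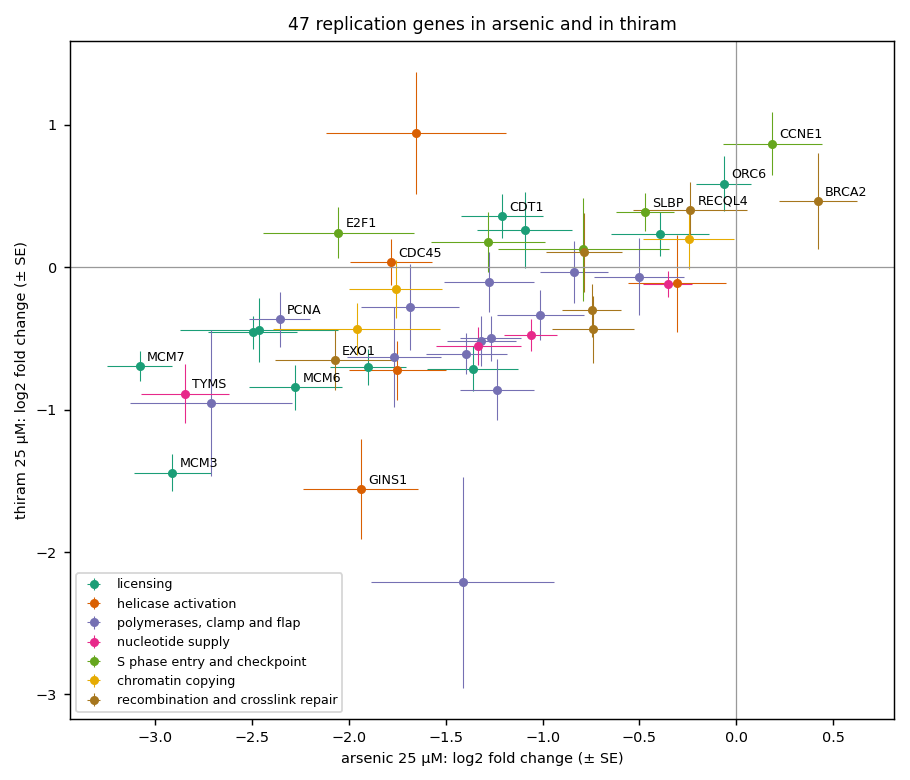
Log2 fold change at 25 µM in arsenic (horizontal) and thiram (vertical) of the 47 genes, each against the controls of its own plate, with bars of 1 SE and colour for role. MCM3, TYMS and GINS1 are low on both axes, and CCNE1, ORC6 and SLBP lie above 0 for thiram.

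A list of 48 other replication genes had 36 called lower and 1 higher in arsenic (median -0.99), 14 lower and 3 higher in thiram (-0.32), and 8 lower and 1 higher in cadmium (-1.13). The smallest p in both arsenic and thiram belonged to DUT, which keeps uracil out of DNA (-2.46 and -1.16), and POLD2, a subunit of polymerase delta (-1.59 and -0.73). RFC1, the large clamp loader subunit, was called higher in both (0.62 and 0.57). CHTF18, of an alternative clamp loader, and BRIP1 were called higher in thiram (0.99 and 1.33). Of 20 mitotic genes, which act after S phase, 19 were called lower in arsenic (median -1.26), 16 in thiram (-0.82) and 13 in cadmium (-1.25), with 0 higher. KIF20A, a kinesin of cell division, had -2.59 and -1.95 in arsenic and thiram, CDK1, the mitotic kinase, -2.49 in arsenic, and PLK1, another mitotic kinase, -1.04 in thiram.

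Of 20 genes that control G1 and passed the filter, 12 were called lower and 3 higher in arsenic, and 5 each way in thiram. CDKN1A, which encodes the CDK inhibitor p21, was called higher in both, by 2.34 ± 0.10 and 1.20 ± 0.12 log2. Also called higher in both, in arsenic and thiram respectively, were CDKN1C, the inhibitor p57 (0.74 ± 0.29 and 3.86 ± 0.22), and E2F6, a repressing E2F (0.63 ± 0.19 and 0.65 ± 0.21). CDK4, the kinase of cyclin D, was called lower in both (-0.998 and -1.33), as were E2F4 (-0.90 and -0.51) and CDKN1B, the inhibitor p27 (-0.67 and -1.12). CDKN2C (-0.62 and -1.36) and CCND3 (-0.24 and -0.26) were called lower in both too. Arsenic and thiram lay on different plates with separate controls.

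In copper, lead and MPB at 25 µM, 2, 1 and 3 members were called, all higher, against 2.88%, 2.15% and 0.430% of all genes called higher. CLSPN, which carries the checkpoint signal at stalled forks, had 27.4, 26.4, 41.5 and 46.5 CPM in copper and 37.8, 38.4, 36.1 and 44.3 CPM in lead, against 14.6 to 40.0 CPM (median 21.8) in the shared controls. The log2 fold changes were 0.65 ± 0.21 and 0.80 ± 0.20, and both groups overlapped the controls. CCNE1 had 28.6, 30.1, 34.3 and 36.7 CPM in copper against 11.7 to 36.2 CPM, and 0.75 ± 0.22 log2. In copper 0 calls were left with DESeq2, without library 3 and against the higher-numbered controls, and 1 without library 4. In the lower-numbered libraries alone 4 members were called higher and 6 lower. In lead 0 were left without library 4.

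In MPB at 25 µM, E2F1 (80.8, 49.1, 56.03 and 69.5 CPM, controls 28.1 to 61.8), UHRF1 (253, 161, 165 and 193 CPM, controls 94.3 to 175) and RECQL4 (83.8, 71.6, 78.1 and 81.5 CPM, controls 39.6 to 77.2) were called higher. Their log2 fold changes were 0.48 ± 0.13, 0.56 ± 0.14 and 0.56 ± 0.14. Each overlapped the upper part of its control range. The count was 0 without MPB library 1, in the higher-numbered libraries alone and against the higher-numbered controls, 1 without library 4, and 12 against the lower-numbered controls.

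The other 14 chemicals at 25 µM had 0 calls among 658 tests of a member with edgeR and 1 with DESeq2, against 0.0186% of all genes. At an unadjusted p under 0.05 there were 59 (8.97%), against 6.28% of all genes. Their medians over the members ran from -0.10 (PFOS) to 0.13 (DCP_25).

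At lower doses few members passed. At 2.5 µM the calls were 4 in copper, 2 each in arsenic, MPB and DDE, and 1 in lead, all higher, against 1.41%, 0.906%, 0.265%, 0.230% and 0.387% of all genes called higher. CLSPN was called in arsenic (1.02 ± 0.21), copper (0.89 ± 0.20) and lead (0.79 ± 0.20), which share their controls. Copper also had ORC6 (0.57 ± 0.12), RAD51AP1 (0.49 ± 0.14), a partner of the recombinase, and RFC4 (0.46 ± 0.14). BRCA1 was called in arsenic (0.69 ± 0.17), UHRF1 and RRM2 in MPB (0.52 ± 0.14 and 0.32 ± 0.08) and CHAF1B and POLA1 in DDE (1.23 ± 0.27 and 1.21 ± 0.28). With the number set as a term in the fit copper had 19 calls at 2.5 µM, and against the higher-numbered controls 2. Leaving out library 1, 2, 3 or 4 gave 3, 2, 2 or 1 in copper and 0 each in lead. In arsenic it was 1 without library 3 or 4, in MPB 0 without library 3 or 4 and 6 without library 2.

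At 0.25 µM 1 member was called over the 21 chemicals, against 0.0748% of all genes: LIG1 was lower in PCB153 (-0.64 ± 0.14, adjusted p = 0.00489, edgeR), where 0.0188% of all genes were, and no longer without library 3. At 0.025 µM 0 were called with edgeR and 5 with DESeq2, against 0.0104% of all genes, and 135 of 987 tests (13.7%) had an unadjusted p under 0.05, against 6.36% of all genes. The medians over members at 0.025 to 2.5 µM ran from 0.05 to 0.41 on plate 3153-AT, 0.05 to 0.16 on plate 3206-AT, 0.00 to 0.13 on plate 3240-AT and -0.07 to 0.15 on plate 3284-AT. Groups of a plate share controls. Over the 60 groups of these plates the highest median was 0.41, and 58 medians were above 0. Against the higher-numbered controls alone the highest was 0.26 and the lowest -0.18, with 36 above 0. Against the lower-numbered controls alone these were 0.53 and -0.02, with 57 above 0. With the number set as a term 53 were above 0, and within the lower- and higher-numbered libraries alone 46 and 53.

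As a slope over the 4 doses, 40 members fell with dose in arsenic (15.6% of all genes fell), 15 fell and 1 rose in thiram (9.26% and 9.24%), 6 fell in cadmium (4.78%) and MCM10 fell in phenanthrene (0.139%). The 38 members called in arsenic at 25 µM were all among the 40. The steepest slopes in thiram were those of GINS1 and MCM3, -0.48 ± 0.12 and -0.45 ± 0.04 log2 per 10-fold step of dose, and RECQL4, a helicase of the recombination group, rose by 0.19 ± 0.07. In arsenic the change lay between the 2 highest doses: the median over members of each library's level against the control mean was 0.01 to 0.51 log2 at 2.5 µM and -1.43 to -1.23 at 25 µM. In thiram it was -0.08 to 0.17 and -0.53 to -0.13. In the other 17 chemicals 0 members had a slope that passed (45 of 799 at an unadjusted p under 0.05, 4 with DESeq2), against 0.181% of all genes at an adjusted and 5.97% at an unadjusted p under 0.05. Where the replicate numbers pair the libraries, the paired fit changed this: with the replicate block copper had 6 falling, lead 3 falling and 3 rising, and mercury 1 falling. Without thiram library 3 the thiram count was 10, without cadmium library 2 the cadmium count 3, and the call of MCM10 in phenanthrene was lost without library 1, 2 or 4.

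**Figure D4:**
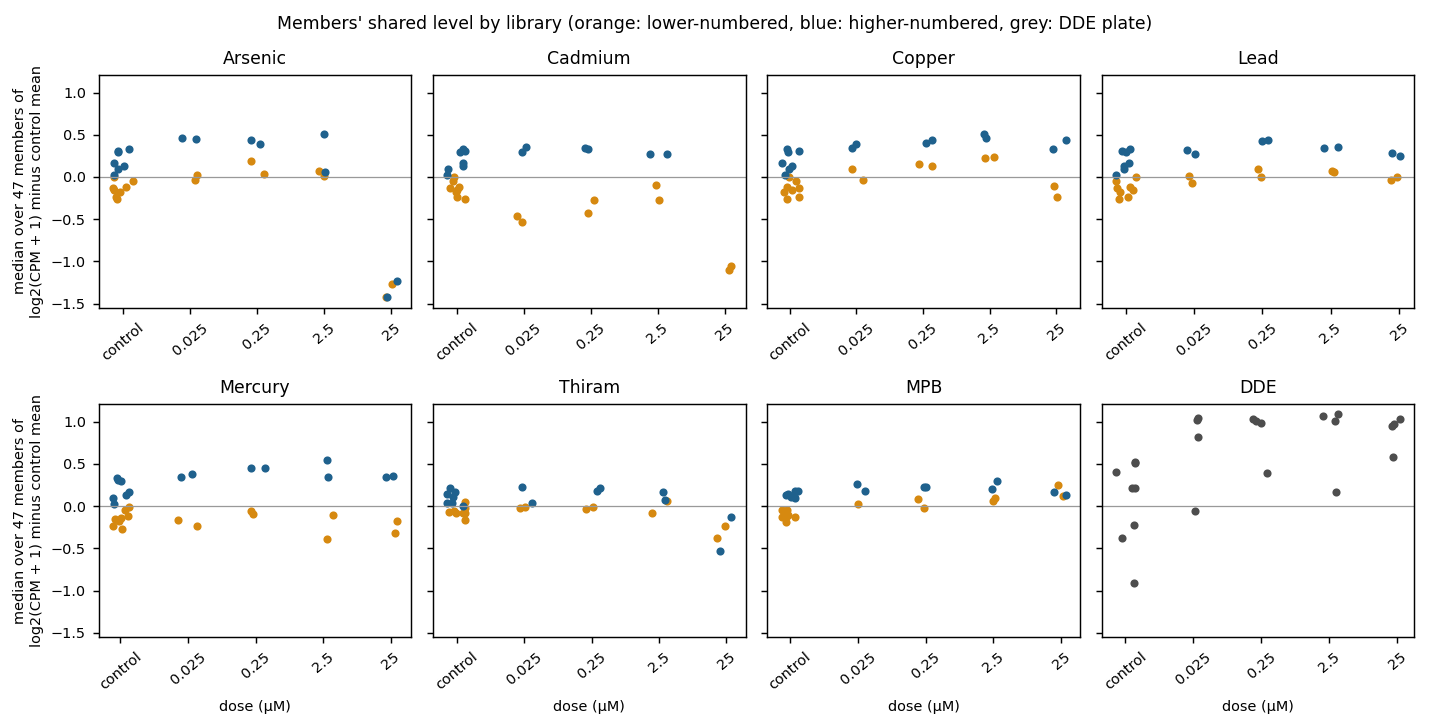
Median over the 47 genes of log2(CPM + 1) minus the control mean, 1 point per library, in controls and at the 4 doses of 8 chemicals (lower-numbered orange, higher-numbered blue, DDE plate grey). Arsenic falls to between -1.43 and -1.23 at 25 µM only, and DDE is spread at every dose with 1 low library in each.

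In DDE at 25 µM 21 members were called higher and 0 lower, against 3.56% of 13921 genes called higher on its plate. The median was 0.79 over the members and -0.03 over all genes. All 21 were also called in arsenic at 25 µM, in the opposite direction. Since arsenic called 38 of the 47 members, nothing is read from this overlap. By role these were 8 of 11 licensing genes, 2 of 5 helicase activators, 5 of 13 in the polymerase group, 2 of 4 nucleotide enzymes, 2 of 3 chromatin genes, and SLBP and EXO1. The largest change was that of MCM6, with 60.2, 114, 117 and 123 CPM in DDE and 8.20, 42.03, 57.9, 66.1, 48.6, 35.1, 19.6 and 3.55 CPM in the 8 controls. Its log2 fold change was 1.52 ± 0.43 (adjusted p = 0.0363, edgeR), and the lowest DDE library lay inside the control range. The smallest called change was that of SLBP (121, 143, 149 and 168 CPM against 78.9 to 128 CPM, 0.59 ± 0.16 log2, adjusted p = 0.0345). MCM7 had 343, 490, 506 and 487 CPM, all above its controls at 56.5 to 306 CPM.

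The controls spread as widely as the difference: the median over members of a control library ran from -0.90 to 0.52 log2 around the control mean, and that of the 25 µM libraries from 0.58 to 1.04. The lower doses had medians of 0.67, 0.79 and 0.73 at 0.025, 0.25 and 2.5 µM with 0, 0 and 2 calls, and 0 members had a dose slope. The count at 25 µM was 0 without the second or without the third library of each dose, 7 without control 9, 5 without control 15, 11 without control 16, and 34 without the libraries numbered 1, 8, 9 and 16. At 2.5 µM it was 0 without any of the first 3 libraries of each dose, 33 without the fourth, and between 0 and 15 without 1 control. The solvent and plate labels of DDE differ from those of its controls, so chemical, solvent and labelled plate cannot be told apart there. At 25 µM the luminal markers summed to 40.9 to 67.9 CPM against 74.8 to 335 CPM in the controls, and the basal markers to 5916 to 10007 against 8372 to 12394 CPM. Their part in the result was not tested. In the same group 14 of the 48 other replication genes were called higher and 1 lower (median 0.59), and 5 of 19 mitotic genes higher (median 0.78).

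The lower- and higher-numbered controls, which received no chemical, differed in the same genes. Lower in the lower-numbered controls were 22 members among the metals' controls (plate 3153-AT), 16 among those of plate 3206-AT, 8 among those of thiram's plate 3284-AT and 0 among those of plate 3240-AT (7 at an unadjusted p under 0.05), and 0 were higher on any. Of all genes 9.47%, 3.09%, 2.20% and 0.164% were called lower, in that order. On plate 3153-AT 19 of 47 other replication genes and 14 of 19 mitotic genes were lower there too. The medians over members were -0.33, -0.25, -0.20 and 0.04 log2. These wells differ in number and depth but not in label. In arsenic the count within the lower-numbered libraries was 34 lower and 1 higher and within the higher-numbered 37 lower. In thiram it was 10 lower and 3 higher, and 15 lower and 1 higher. The shares of all genes called in these fits are not given here, so the counts have no background to be read against.

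**Figure D5:**
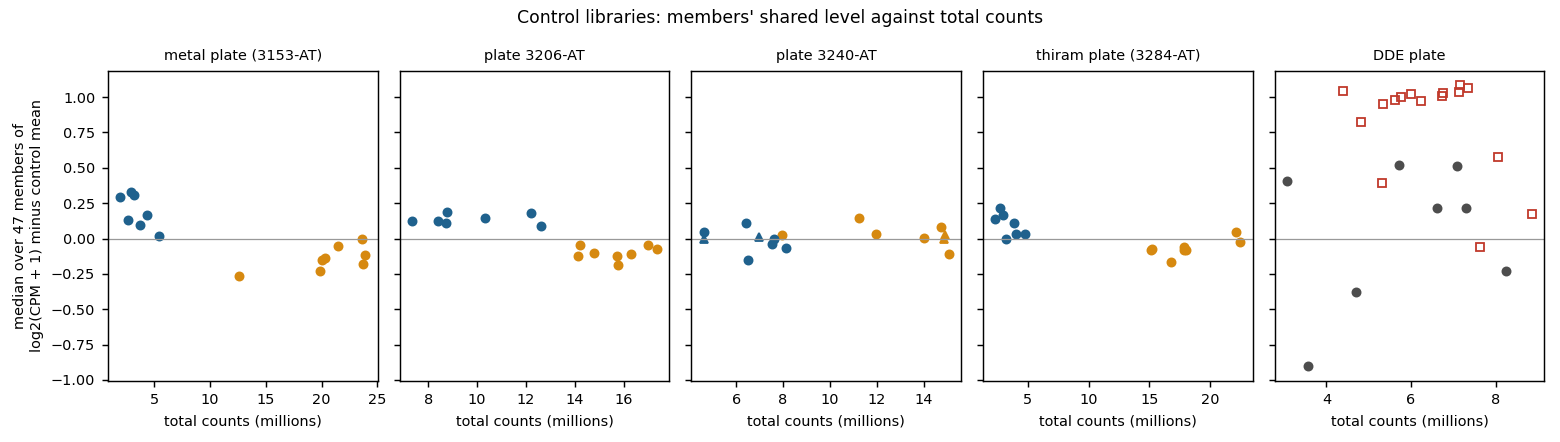
Median over the 47 genes of log2(CPM + 1) minus the control mean against total counts (M) for each control library of the 5 plates (lower-numbered orange, higher-numbered blue, triangles for water on plate 3240-AT); on the DDE plate controls are grey and DDE libraries of all doses are open red squares. On the plates other than 3240-AT and that of DDE, most lower-numbered controls lie below 0 and have larger totals, and the DDE plate controls range from -0.90 to 0.52.

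Among related compounds at 25 µM and 48 h, 8 pairs on the same plate were compared: BPA, BPF and BPS with each other, MPB with PPB, PFNA, PFDA and PFOS with each other, and PCB153 with PCB187. MCM10 was higher in PFDA than in PFOS (0.73 ± 0.13 log2, 95% interval 0.46 to 0.99, adjusted p = 0.00652 over all genes, edgeR), where 0.00514% of all genes were called higher. That call was lost without library 1, 2 or 3. In this pair 18 of 47 members had an unadjusted p under 0.05, against 1609 of the 19468 genes tested. Estimates were above 0 in 42 members, and their median was 0.22 log2. In the other 7 pairs 0 of 329 tests of a member passed with edgeR or DESeq2, and 23 had an unadjusted p under 0.05. Of all genes in those 7 pairs, 0.000669% passed and 4.60% had an unadjusted p under 0.05. The half-width of the 95% interval of a member's difference had a median of 0.27 to 0.35 log2 in the 8 pairs. Differences below that size were not resolved. These intervals are not adjusted for the number of genes, and larger differences were not called either, such as up to 0.57 log2 in PFNA against PFOS.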

How the data were processed

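RNA of MCF10A cells was sequenced with plexWell, a plate-based method in which each well and each plate has a barcode. The deposited values are raw counts of reads, by gene symbol, in a separate file for each library. Per the submitters' processing notes, STAR, featureCounts, FastQC, MultiQC and GRCh38 were used, while for the annotation used, strandedness and any filter on genes the answer is not given in the sources used here. Counts are reads without molecular identifiers, so precision refers to counting error only.

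Libraries were grouped by chemical, dose and the plate barcode in the label with its ending, and 402 were read. Each plate was fitted alone with edgeR 4.0.16 (R 4.3.3, limma 3.58.1): filterByExpr by group (minimum count 10, minimum total 15), TMM, and the quasi-likelihood test with 5% of genes as top proportion. P-values were adjusted over all genes tested on the plate, and calls are adjusted p under 0.05. Genes that overlap on opposite strands may share reads. DESeq2 1.42.0, RLE scaling, no filter, number-set fits, left-out libraries and control sets were alternatives, the last added after seeing the data. On simulated counts with 100 genes changed by 1 log2 unit, 97% were called in arsenic's design (16491 genes) and 86% in thiram's (15519 genes). At 0.5 log2 units it was 29% and 56%, with 7 false calls in each design. The simulated counts held no difference between number sets, and only genes above 1 CPM were changed. These rates may therefore overstate those in the real data.

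The members and lists were chosen with earlier results of these data known. All 47 members may be named. Values per library are given for the member of each role with the smallest p in arsenic and in thiram, and for members called in both in opposite directions. Of the other comparisons, called members are named when at most 5, otherwise the highest and the lowest; MCM7 in DDE was chosen after its values were seen. Replicate numbers paired the libraries of 4 chemicals (copper, lead, mercury and PFOA): every same-numbered pair of their groups had a correlation of deviations of at least 0.18.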

Additional observations from a re-analysis of the deposited data

Results flagged for a closer look

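In a check of 20 groups of a named gene for a library far from the rest, 2 stood apart, and chance alone gives about 1 in 20. TYMS in arsenic library 4 had 4.87 CPM, where the other 3 libraries had 9.21 to 9.86 CPM and the lowest control 47.2 CPM. MCM6 in DDE library 1 at 25 µM had 60.2 CPM, where the other 3 had 114 to 123 CPM. The direct test of arsenic against cadmium at 25 µM found a difference in MCM7 (-1.50 log2), TK1 (-0.84), LIG1 (-1.54) and CHAF1B (-2.28), all lower in arsenic, with 2 cadmium libraries of 1.43 and 1.45 M counts (M for 1000000) behind each value.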

How the results depend on the processing

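Counts of called members in arsenic stayed between 35 and 42 at 25 µM under each alternative run, and in thiram between 13 and 27. Of the 38 arsenic calls, 34 to 38 were made again in each. For the alternatives the share of all genes called is not given here. A change in a count of members therefore cannot be told from a change in calls over all genes. Where a setting was not run for DDE, sums keep its main value. Cadmium at 25 µM had 7 calls, 12 without a filter, 24 with DESeq2, 3 with the library put back and 3 to 7 with 1 library left out. Thiram had 13 in the lower-numbered libraries alone. Copper had 2, then 1 under RLE scaling, 6 without a filter, 0 with DESeq2, 7 with the number-set term, 10 in the lower-numbered libraries alone (mostly lower, the reverse of its 2), 0 against the higher-numbered controls and 0 to 2 with 1 library left out. Lead had 1, then 3 without a filter, 2 with DESeq2, 6 with the term, 5 and 2 in the lower- and higher-numbered libraries and 0 to 2 with 1 left out. MPB had 3, then 5 without a filter, 5 with the term, 10 and 0 in the 2 number sets, 12 and 0 against the lower- and higher-numbered controls and 0 to 3 with 1 left out. DDE had 21, then 34 without numbers 1, 8, 9 and 16 and 0 to 26 with 1 library or control left out. The other 14 chemicals had 0, then 2 without a filter, 1 with DESeq2, 3 with the term, 2 and 3 in the number sets, 1 and 1 against the control sets and 0 to 1 with 1 left out. The cause of these changes was not tested.

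At 2.5 µM the sum was 11, then 18 without a filter, 22 with DESeq2, 34 with the term, 38 and 26 in the number sets, 39 against the lower-numbered controls and 3 to 35 with 1 left out. At 0.25 µM it was 1, lower, and then mostly higher: 13 without a filter, 21 with DESeq2, 17 with the term, 20 and 10 in the number sets, 14 and 2 against the control sets and 1 to 17 with 1 left out. At 0.025 µM it was 0, then 11 without a filter, 5 with DESeq2, 6 with the term, 11 and 7 in the number sets, 11 and 1 against the control sets and 0 to 23 with 1 left out. Calls at low doses and in copper, lead, MPB and DDE thus rest on these choices.

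Dose slopes in cadmium numbered 6, then 11 without a filter, 22 with DESeq2, 3 in the lower-numbered libraries, 1 with the library put back and 3 to 6 with 1 left out. Thiram had 16, then 10 in the lower-numbered libraries and 10 to 16 with 1 left out. Copper had 0, then 5 with the term and 5 in the lower-numbered libraries, and 6 with the replicate block. Lead had 0, then 1 without a filter, 1 with DESeq2, 1 with the term, 3 and 1 in the number sets, 1 with the 4 doses fitted alone and 6 with the replicate block. The other 16 chemicals had 1, then 2 under RLE scaling, 5 without a filter, 5 with DESeq2, 5 with the term, 5 and 13 in the number sets, 5 with the doses alone, 9 with the replicate block and 0 to 1 with 1 left out. With the replicate block arsenic had 42, thiram 19 and cadmium 5. Arsenic against cadmium had 4, then 8 without a filter, 17 with DESeq2, 9 with the term, 12 with the library put back and 1 to 3 with 1 left out. The 8 pairs had 1, then 2 with DESeq2, 2 with the term, 6 in the higher-numbered libraries and 0 to 1 with 1 left out. Depth limits cadmium at 25 µM most, where the median over members was 37 counts summed over both libraries.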

Other observations

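On the DDE plate 1 library of each dose group was the lowest for most replication genes, and in the controls number 16 was. Within each dose group the library numbered 1, 8, 9 or 16 was the lowest of the 4 for most members: number 1 for 32 of 47 at 25 µM, number 8 for 43 at 2.5 µM, number 9 for 39 at 0.25 µM and number 16 for 38 at 0.025 µM. Number 16 was also the lowest of the 8 controls for 35 members, and controls 9 and 16 were the lowest 2 for 25. Control 9 was itself the lowest for 3 members and control 15 for 5. MCM6 had 3.55 CPM in control 16 and 8.20 CPM in control 9, against 66.1 CPM in control 12. The numbers were singled out after values of this plate had been seen, and the labels do not say what they stand for.

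Where the replication genes lie next to other genes, reads may be shared. In GENCODE v29 the exons of 18 members overlap those of another gene listed in the files, 16 of them on the opposite strand. TYMS shares 967 bases with ENOSF1 and CCNE2 1629 with INTS8, and MCM7 overlaps AP4M1. Without strand, reads of such a pair cannot be told apart. Listed pseudogenes took few reads: RRM2P3, the most counted, had 409 counts against 511987 of RRM2 (0.0799%).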
